A study of Mus musculus with 10 samples.

Results

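The genes described here are Sox9 and Sox8, the 6 cartilage-type collagen chain genes Col2a1, Col9a1, Col9a2, Col9a3, Col11a1 and Col11a2, the proteoglycan gene Acan and the cytokine-like gene Cytl1. They were followed through RNA-seq libraries of mouse ureteric bud (UB) organoids, collecting duct (CD) organoids and adult CD cells. They were picked by name as cartilage-type matrix genes and their SOX regulators that were thought to be expressed in UB organoids and lost in CD organoids, and they are 10 of the 39273 genes in the deposited table. Since that choice used the levels in UB and CD organoids, the differences of these 10 genes between UB and CD libraries are given below as descriptions without a test. Lists of other genes were tested there. The 3 ages of UB organoid were compared by test. Of these, the comparisons with day 10 share libraries with the choice, because Col9a1, Col2a1 and Cytl1 were already known to stand far above CD organoids at day 10. Day 20 against day 5 compares none of the day 10 or CD libraries, but its p-value uses a spread estimated over all 10 libraries. This comparison is not independent of the choice either, since expression in UB organoids was part of that choice. Day 20 against day 5 and day 20 against day 10 both cross a split in Y-linked genes that is given below, and day 10 against day 5 does not.

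Each of the 5 groups had 2 libraries. UB organoids were grown from the UBs of embryos labelled embryonic day 11, genotype Wnt11-RFP +/- and strain background C57BL/6 x Swiss Webster, in Matrigel with a UB culture medium holding FGF9, TTNPB, CHIR99021, GDNF, LDN193189, A83-01, R-Spondin1, a JAK inhibitor and SB202190, and were sampled at day 5, day 10 and day 20. CD organoids carry the same labels of age, genotype and strain, with Kidney CD in place of Kidney UB as the tissue. By the study's methods they were made by moving UB organoids of day 10 into a differentiation medium. It held aldosterone and vasopressin beside FGF9 and the inhibitors Y27632, DAPT and PD0325901. The adult CD libraries have the same genotype, strain and embryonic age in their labels and are called organoids there, but the study's methods describe sorted Hoxb7-Venus-positive cells of adult kidney. That reporter marks the whole UB lineage. The labels do not say whether the 2 libraries of a group came from separate cultures or animals, so the p-values measure only the spread between these libraries, which may be technical.

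SOX9 and SOX8 belong to the SoxE group of HMG-box transcription factors. In cartilage, SOX9 acts with SOX5 and SOX6 to switch on the genes of the matrix, among them the chains of type II collagen, the main fibril of cartilage, of type XI collagen, which sits inside that fibril, and of type IX collagen, which coats it, and also the gene of aggrecan, the large proteoglycan that holds water between fibrils. In the embryonic kidney, SOX9 and SOX8 are expressed in the branching tips of the ureteric bud downstream of RET signalling, and loss of both impairs branching. Type IX collagen is a heterotrimer of the products of Col9a1, Col9a2 and Col9a3, and type XI collagen combines the products of Col11a1, Col11a2 and Col2a1.

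Of the 10 genes, 7 had a promoter entry in RefSeq (GRCm38.p6), and Sox9, Col2a1 and Col9a3 had none. The 250 bases before the transcription start are shown for 4 of them. Col9a1, Col9a2 and Cytl1 were highest at day 10, and Col11a2 was highest in CD organoids. Capitals mark GGGCGG, the GC box, or TATAAA, each on either strand, and all sequences run 5′ to 3′ on the plus strand, which is the strand of these 4 genes.
Col9a1, chr1:24177360-24177609: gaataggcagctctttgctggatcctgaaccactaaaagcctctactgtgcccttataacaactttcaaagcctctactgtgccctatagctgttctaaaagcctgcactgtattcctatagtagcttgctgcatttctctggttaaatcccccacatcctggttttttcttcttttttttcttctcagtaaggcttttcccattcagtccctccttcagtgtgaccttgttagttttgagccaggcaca
Col9a2, chr4:121039316-121039565: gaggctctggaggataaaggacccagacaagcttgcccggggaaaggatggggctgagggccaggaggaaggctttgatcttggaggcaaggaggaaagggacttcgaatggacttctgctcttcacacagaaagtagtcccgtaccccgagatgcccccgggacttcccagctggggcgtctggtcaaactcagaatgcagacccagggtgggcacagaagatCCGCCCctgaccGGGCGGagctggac
Cytl1, chr5:37735269-37735518: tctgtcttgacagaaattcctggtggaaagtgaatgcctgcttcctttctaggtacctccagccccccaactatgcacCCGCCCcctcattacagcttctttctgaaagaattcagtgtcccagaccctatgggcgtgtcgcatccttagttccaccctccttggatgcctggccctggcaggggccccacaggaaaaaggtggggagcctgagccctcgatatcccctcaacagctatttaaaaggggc
Col11a2, chr17:34038888-34039137: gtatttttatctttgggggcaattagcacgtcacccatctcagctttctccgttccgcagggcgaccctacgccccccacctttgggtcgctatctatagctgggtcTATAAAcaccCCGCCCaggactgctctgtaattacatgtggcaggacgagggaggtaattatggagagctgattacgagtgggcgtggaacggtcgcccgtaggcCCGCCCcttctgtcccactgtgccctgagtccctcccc
The Col9a1 window held neither word and no CG dinucleotide, with a GC content of 43.6%, against a median of 52.4% over the 32851 promoter windows of this length. A second RefSeq start of Col9a1 lies inside the gene, and its window (chr1:24194953-24195202) also held no CG dinucleotide, with a GC content of 56.0%. The counts are per gene, so transcripts from these starts were not told apart. The GC box stood once in the Cytl1 window, 172 bases before the start. The Col9a2 window held it at 26 and 14 bases before the start, and the Col11a2 window held it at 133 and 38 bases. It was found in 32.7% of all windows. Col11a2 was the only one of these 7 genes with TATAAA, at 143 bases before the start, a word found in 12.4% of all windows. The core SOX words ACAAAG and ACAATG, searched on both strands, were in 0 of the 8 windows of the 7 genes, where 25.2% of all windows held at least one of them. This says only that these letters are not in these windows.

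The deposited totals ran from 11913613 to 24536676 counts per library, with the libraries of day 5 and day 10 the deepest. The limit of detection was set at 3 counts, or 0.109 to 0.241 CPM. CPM are counts per 1000000 of the library total, scaled by its TMM factor. Ureteric epithelium markers summed to between 3338 and 5623 CPM in every library. Collecting duct markers summed to 1551 to 1770 CPM in CD organoids and 8610 to 8835 CPM in adult CD, against at most 147 CPM in UB organoids. In the adult CD libraries, proximal tubule markers summed to 4390 to 5195 CPM and endothelium markers to 584 to 588 CPM, whereas no organoid library passed 37.1 and 2.91 CPM. Levels and ratios given for adult CD are thus those of libraries that also hold such RNA, and its part in them was not tested. A sum of 4 Y-linked genes was 0.0408 to 0.875 CPM in the 4 libraries of day 5 and day 10 and 230 to 295 CPM in the other 6. This sum separates day 20 and CD organoids from the earlier UB organoids together with age and medium, and in comparisons across that line they cannot be told apart. Since the day 10 and CD organoid libraries differ in this sum, ratios between them are not read as before and after of 1 culture.

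The description of the genes as expressed in UB organoids and lost in CD organoids fitted them unequally. Sox8, Col2a1, Col11a1, Col9a1, Col9a2, Col9a3 and Cytl1 were lower in both CD organoid libraries than in every UB organoid library. Of these 7, Sox8, Col2a1, Col9a1 and Cytl1 had 5 or fewer counts in each CD organoid library and Col9a2 stayed below 1 CPM. Col11a1 and Col9a3 were lower but kept 6.86 and 14.2 CPM on average, and the day 5 mean of Col9a3 was only 3.12-fold above that of CD organoids. The description did not hold for Sox9, which stayed near its UB level, or for Col11a2, which was highest in CD organoids. Acan was low throughout, with 14 and 7 counts at day 5 and 5 or fewer in every other library. The plot of levels by library shows these patterns side by side.

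**Figure D1:**
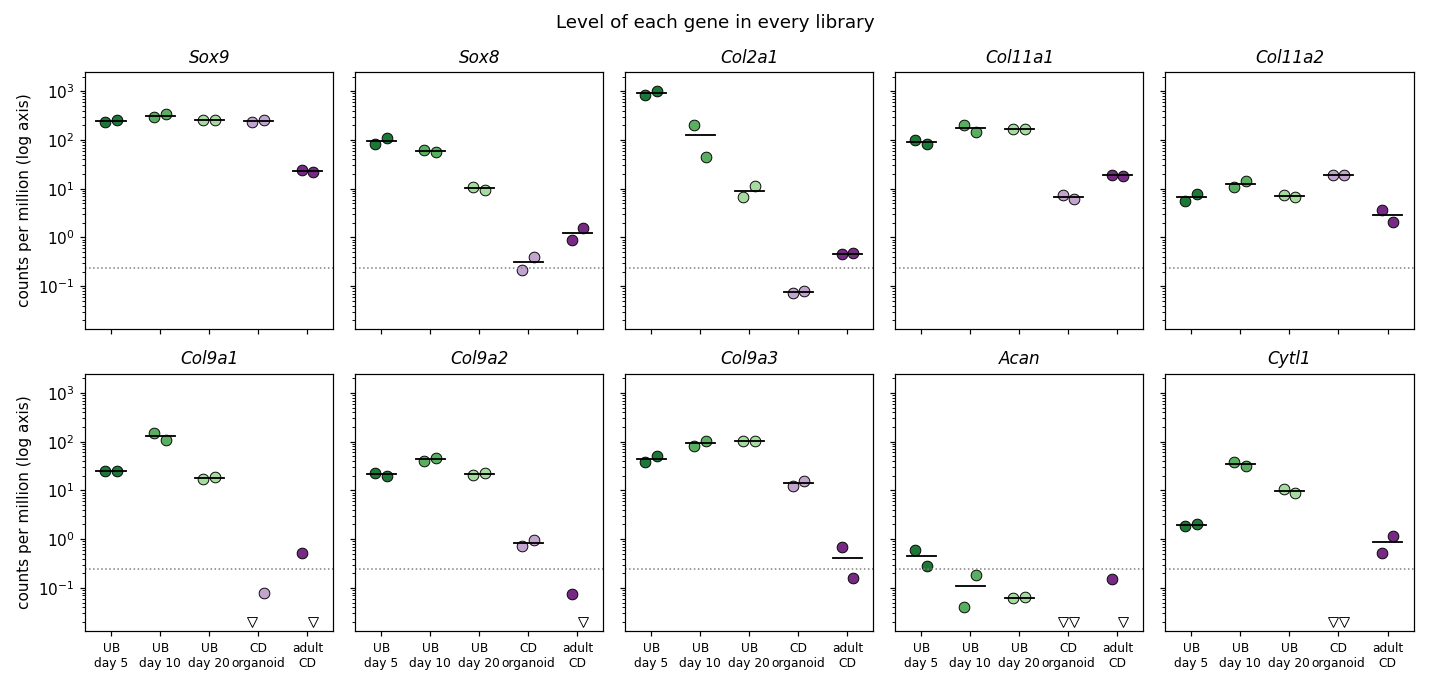
Level of each of the 10 genes in every library, in CPM on a log axis. Points are single libraries, 2 per group, black bars are group means, open triangles at the bottom edge mark libraries with 0 counts (no mean is drawn for those groups), and the dotted line is the highest level that 3 counts equalled in any library, 0.241 CPM. Sox9 is flat from UB to CD organoids, Col2a1 steps down at each sampled day, and Col9a1 and Cytl1 peak at day 10.

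Sox9 (ENSMUSG00000000567, chr11:112782224-112787760, GRCm38) was among the steadiest of the genes. Its level was 231 and 257 CPM at day 5, 291 and 345 CPM at day 10, 256 and 259 CPM at day 20, 234 and 256 CPM in CD organoids, and 23.7 and 22.5 CPM in adult CD. The day 10 libraries lay above all others, the libraries of day 5, day 20 and CD organoids overlapped, and the adult libraries lay far below. Sox9 rose by 0.38 ± 0.09 (log2, SE) from day 5 to day 10, with an edgeR adjusted p of 0.00459. It fell by 0.31 ± 0.09 from day 10 to day 20 (edgeR adjusted p = 0.0199). Day 20 against day 5 gave 0.08 ± 0.09 (edgeR adjusted p = 0.526). The second of these changes did not pass the test without day 10 replicate 2 (edgeR adjusted p = 0.171), without day 20 replicate 1 (0.139) or without day 20 replicate 2 (0.0926), and not with a fit of those days alone (0.0901). CD organoids had a mean of 245 ± 15.7 CPM (SD, n = 2), which is 1.30-fold below day 10 and 1.05-fold below day 20, and adult CD a mean of 23.1 ± 0.896 CPM (SD, n = 2), which is 10.6-fold below CD organoids.

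Sox8 (ENSMUSG00000024176, chr17:25565892-25570686, minus strand), the close relative of Sox9 that can share its targets, went down over the same libraries. Its level was 82.0 and 108 CPM at day 5, 61.9 and 56.2 CPM at day 10, 10.9 and 9.58 CPM at day 20, 0.214 and 0.401 CPM in CD organoids, and 0.904 and 1.57 CPM in adult CD. No 2 groups overlapped, and the CD organoid values rest on 3 and 5 counts. Sox8 fell by 0.69 ± 0.13 (log2, SE) from day 5 to day 10 (edgeR adjusted p = 0.00106) and fell by 2.52 ± 0.15 from day 10 to day 20 (edgeR adjusted p = 9.52e-08). From day 5 to day 20 it fell by 3.21 ± 0.15 (edgeR adjusted p = 3.69e-09), a ratio of means of 9.28. Day 10 stood 192-fold above CD organoids. Taken per length of merged exons, Sox8 stood at 0.470 and 0.557 of the Sox9 level in the day 5 libraries, 0.282 and 0.216 in those of day 10, at 0.0564 and 0.0491 in those of day 20, and at 0.00121 and 0.00207 in CD organoids. With the lengths of the deposited RPKM values these ratios were 0.331 and 0.393 at day 5 and 0.0397 and 0.0346 at day 20.

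Col2a1 (ENSMUSG00000022483, chr15:97975602-98004695, minus strand), which encodes the chain of type II collagen, changed most of the 10 genes over the UB days. Its level was 831 and 1016 CPM at day 5, 207 and 44.6 CPM at day 10, 6.61 and 11.5 CPM at day 20, 0.0712 and 0.0802 CPM in CD organoids, and 0.452 and 0.472 CPM in adult CD. The groups did not overlap, but the day 10 libraries lay 4.64-fold apart. Of the 9913 genes with a mean of at least 10 CPM at day 10 and counts in both libraries, 7 differed between them by as much, Col2a1 included, and the median ratio was 1.09. Col2a1 fell by 2.88 ± 0.46 (log2, SE) from day 5 to day 10 (edgeR adjusted p = 0.000311), by 3.79 ± 0.55 from day 10 to day 20 (edgeR adjusted p = 0.000181) and it fell by 6.67 ± 0.58 from day 5 to day 20 (edgeR adjusted p = 7.21e-07), the last a ratio of means of 102. The size of both steps rests on which day 10 library is kept. Without day 10 replicate 1 they were -4.38 and -2.28, and without day 10 replicate 2 they were -2.17 and -4.49, all past the test. The adjusted p then came from a fit in which the lone library is taken to vary like the others. Fitted with only the groups compared, both steps kept an adjusted p of at most 0.05 (0.0196 and 0.0157) but missed the stricter limit of 0.01. In CD organoids Col2a1 had 1 count in each library, and the ratio of day 20 to CD organoids was 119 with a 95% counting interval from 32.6 to 985, which covers counting error only.

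The 3 chains of type IX collagen did not move as one. Col9a1 (ENSMUSG00000026147, chr1:24177610-24252684) was at 24.8 and 25.4 CPM at day 5, 147 and 110 CPM at day 10, 16.9 and 19.0 CPM at day 20, 0 and 0.0802 CPM in CD organoids, and 0.528 and 0 CPM in adult CD. It stood highest at day 10, apart from all other groups, and CD organoids and adult CD overlapped near 0. It rose by 2.35 ± 0.17 (log2, SE) from day 5 to day 10 (edgeR adjusted p = 4.96e-07), a ratio of means of 5.12, and fell by 2.84 ± 0.18 from day 10 to day 20 (edgeR adjusted p = 1.52e-07), a ratio of 7.16. Day 20 lay slightly below day 5, by 0.48 ± 0.18 (edgeR adjusted p = 0.0443), a call that was lost without any 1 of the 4 libraries compared (adjusted p from 0.0963 to 0.245), under RLE scaling (0.0605), under library totals alone (0.108) and under edgeR's own filter (0.0845). CD organoids held 1 count in all, and the ratio of day 10 to CD organoids was 3392 with a 95% counting interval from 609 to 133993.

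Col9a2 (ENSMUSG00000028626, chr4:121039385-121055322) was at 22.5 and 20.1 CPM at day 5, 41.0 and 45.5 CPM at day 10, 21.2 and 23.0 CPM at day 20, 0.712 and 0.962 CPM in CD organoids, and 0.0754 and 0 CPM in adult CD. Day 5 and day 20 overlapped, and day 10 lay above both. Col9a2 rose by 1.02 ± 0.12 (log2, SE) from day 5 to day 10 (edgeR adjusted p = 3.34e-05), fell by 0.97 ± 0.13 from day 10 to day 20 (edgeR adjusted p = 7.62e-05), and gave 0.05 ± 0.13 between day 20 and day 5 (edgeR adjusted p = 0.786). Its mean in CD organoids, 0.837 ± 0.177 CPM (SD, n = 2), was 26.4-fold below day 20.

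Col9a3 (ENSMUSG00000027570, chr2:180597790-180622189) was at 37.6 and 51.1 CPM at day 5, 81.6 and 105 CPM at day 10, 101 and 104 CPM at day 20, 12.5 and 15.9 CPM in CD organoids, and 0.678 and 0.157 CPM in adult CD. The libraries of day 10 and day 20 overlapped, both above day 5, and the CD organoids kept a level well over detection. Col9a3 rose by 1.07 ± 0.16 (log2, SE) from day 5 to day 10 (edgeR adjusted p = 0.00016) and was 1.21 ± 0.16 above day 5 at day 20 (edgeR adjusted p = 2.82e-05). Day 20 against day 10 gave 0.14 ± 0.15 (edgeR adjusted p = 0.543). Day 20 stood 7.23-fold above CD organoids, where the same ratio for Col9a1 was 476 with a 95% counting interval from 85.02 to 18819.

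The mix of type IX transcripts differed between the groups accordingly. Per length of merged exons, Col9a3 gave 44.5% and 53.6% of the summed type IX RPKM (reads per kilobase of exon and 1000000 reads) in the day 5 libraries, 33.4% and 42.7% in those of day 10, 72.0% and 70.8% in those of day 20, and 93.4% and 92.7% in CD organoids. Col9a1 gave 22.3% and 20.2% at day 5, 45.8% and 34.1% on day 10, 9.18% and 9.81% on day 20, but 0% and 0.356% in CD organoids. The Col9a1 share was thus highest at day 10 and the Col9a3 share in CD organoids, and for neither did the libraries of those groups overlap with any other organoid group. The adult CD libraries held 17 and 2 type IX counts and are not described as shares.

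The type XI chains parted in CD organoids. Col11a1 (ENSMUSG00000027966, chr3:114030540-114220718) was at 99.2 and 80.9 CPM at day 5, 205 and 146 CPM at day 10, 168 and 172 CPM at day 20, 7.55 and 6.17 CPM in CD organoids, and 19.4 and 18.4 CPM in adult CD. Day 10 and day 20 overlapped above day 5, and CD organoids were the lowest group. Col11a1 rose by 0.96 ± 0.13 (log2, SE) from day 5 to day 10 (edgeR adjusted p = 0.000108) and was 0.91 ± 0.14 above day 5 at day 20 (edgeR adjusted p = 8.14e-05). Day 20 against day 10 gave -0.05 ± 0.13 (edgeR adjusted p = 0.828). Day 20 stood 24.7-fold above CD organoids and 8.99-fold above adult CD.

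Col11a2 (ENSMUSG00000024330, chr17:34039437-34066685) was at 5.55 and 7.67 CPM at day 5, 10.9 and 14.1 CPM at day 10, 7.28 and 6.87 CPM at day 20, 19.0 and 19.2 CPM in CD organoids, and 3.62 and 2.04 CPM in adult CD. Both CD organoid libraries lay above every other library. The ratio of CD organoids to day 10 was 1.53 and to day 20 was 2.70. Col11a2 rose by 0.91 ± 0.21 (log2, SE) from day 5 to day 10 (edgeR adjusted p = 0.00413) and fell by 0.82 ± 0.21 from day 10 to day 20 (edgeR adjusted p = 0.0115), the latter not past the test without day 20 replicate 1 (edgeR adjusted p = 0.0706) or without day 20 replicate 2 (0.0896). Per length of merged exons, Col11a1 gave between 84.8% and 93.1% of the type XI sum in the 6 UB organoid libraries and 17.6% and 14.8% in CD organoids.

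Cytl1 (ENSMUSG00000062329, chr5:37735519-37739820), a small secreted protein first described in blood precursors and later in cartilage, was at 1.88 and 2.00 CPM at day 5, 38.6 and 31.1 CPM at day 10, 10.9 and 9.05 CPM at day 20, 0 in both CD organoid libraries, and 0.528 and 1.18 CPM in adult CD. No groups overlapped, and the order ran from day 10 through day 20, day 5 and adult CD to CD organoids. Cytl1 rose by 4.13 ± 0.22 (log2, SE) from day 5 to day 10 (edgeR adjusted p = 9.88e-08), a ratio of means of 18.0. It fell by 1.80 ± 0.19 from day 10 to day 20 (edgeR adjusted p = 1.95e-05) but was still 2.33 ± 0.22 above day 5 (edgeR adjusted p = 2.85e-06), a ratio of 5.14. Day 20 was at least 41.4-fold higher than CD organoids, taking 3 counts per library as the limit.

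Acan (ENSMUSG00000030607, chr7:79053483-79115099), the gene of aggrecan, had 14 and 7 counts at day 5, 1 and 5 at day 10, 1 and 1 at day 20, 0 and 0 in CD organoids, and 2 and 0 in adult CD. The highest level was 0.598 CPM, in day 5 replicate 1. Day 10 against day 5 gave -1.56 ± 0.66 (log2, SE, edgeR adjusted p = 0.0922) and day 20 against day 5 gave -2.07 ± 0.79 (edgeR adjusted p = 0.0503), so neither passed the test. At this depth Acan was detected at day 5 and not reliably elsewhere.

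Counted over the 10 genes, all of which passed the filter on low counts, 9 changed between day 5 and day 10 at an adjusted p of at most 0.05, 7 upward and 2 downward, while 32.6% of all 24410 genes tested changed, 15.8% upward and 16.9% downward. With a change of more than 4-fold and an adjusted p of at most 0.01 there were 3 (Col2a1, Col9a1 and Cytl1), where 3.41% of all genes tested met the same limits. Between day 10 and day 20, 7 changed, all downward, against 29% of all genes in either direction, 13% upward and 16% downward, and 3 (Sox8, Col2a1 and Col9a1) passed the stricter limits against 3.39%. Between day 5 and day 20, 6 changed, 3 upward and 3 downward, against 45.1% of all genes, 20.6% upward and 24.6% downward, and 3 (Sox8, Col2a1 and Cytl1) passed the stricter limits against 8.61%. Against these 24410 genes the share changed between day 5 and day 20 is not below that of all genes, but this depends on the filter. These shares of all genes, here and below, include many genes with low counts. With edgeR's own filter 17503 genes were tested, and larger shares of them changed. Of these, 4100 rose and 3982 fell from day 5 to day 10, and 3635 rose and 3559 fell from day 10 to day 20. From day 5 to day 20, 5398 rose and 5356 fell, and with this filter Col9a1 did not pass there (edgeR adjusted p = 0.0845). The median log2 fold change of the 10 genes was 0.94 from day 5 to day 10, -0.89 from day 10 to day 20 and 0.06 from day 5 to day 20, beside 0.02, -0.10 and -0.05 over all genes tested. The choice of the genes used levels in UB organoids, and for Col2a1, Col9a1 and Cytl1 high levels at day 10 were known. Such a choice can favour a rise into day 10 and a fall after it. The counts and medians are therefore not independent of the choice.

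**Figure D2:**
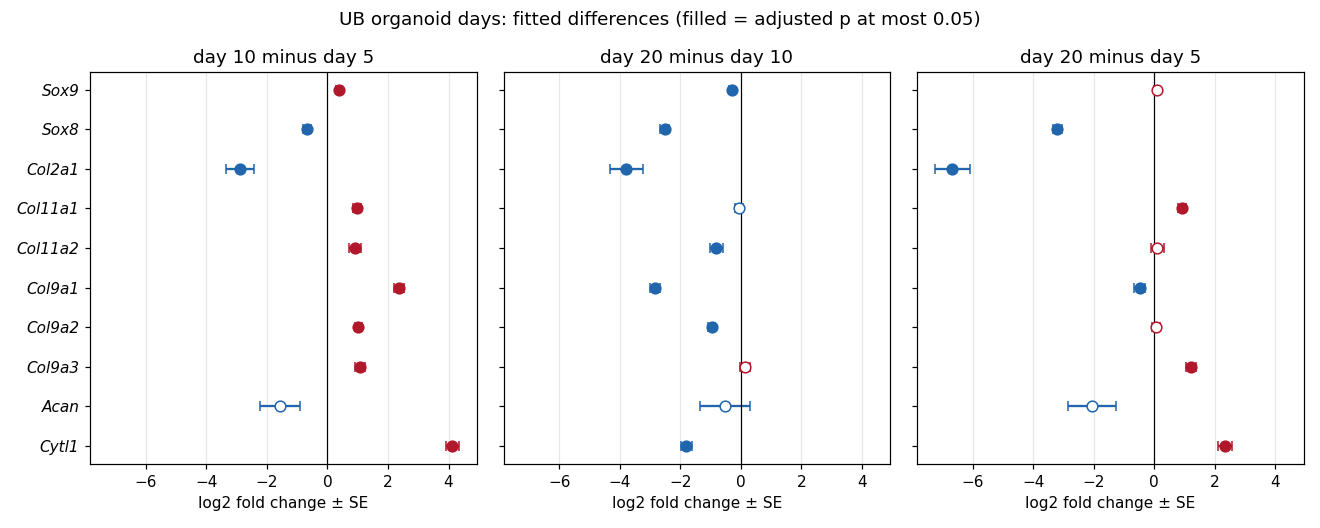
Fitted log2 fold changes between the UB organoid days, one panel per comparison, with 1 SE to each side. Filled points passed an adjusted p of at most 0.05, open points did not, red is higher and blue is lower on the later day. Sox8 and Col2a1 are lower in all 3 panels, Col9a1, Col9a2 and Col11a2 go up and then down, and Col9a3 and Col11a1 stay above day 5 at day 20.

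On a scale per length, in RPKM over merged exons, Sox9 and Col2a1 led at day 5, at 60.1 ± 5.34 and 102 ± 15.9 (SD, n = 2). Sox9 led at day 10 with 78.4 ± 9.20 RPKM, followed by Cytl1 with 33.7 ± 5.17 RPKM, Col9a1 with 25.9 ± 5.34 RPKM and Col9a3 with 24.7 ± 4.28 RPKM, of which Col9a1 and Col9a3 overlapped between libraries. At day 20, Sox9 stood at 64.8 ± 0.257 RPKM and Col9a3 at 27.8 ± 0.514 RPKM, and the next was Col11a1 at 13.9 ± 0.172 RPKM. In CD organoids, Sox9 stood at 61.2 ± 3.85 RPKM, Col9a3 at 3.80 ± 0.630 RPKM and Col11a2 at 2.87 ± 0.0226 RPKM. The deposited RPKM values divide by the summed length of all annotated transcripts of a gene, so genes with many transcripts read low there. For Col11a2 that length was 42585 bases against 6874 bases of merged exons, a factor of 6.195, while for Sox9, with 1 transcript, the factor was 1.00.

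Against all 44 collagen chain genes in the table, on the same merged-exon scale, the 6 cartilage chains made up 30.3% and 29.4% of the summed collagen RPKM at day 5, 27.0% and 27.6% at day 10, 23.4% and 23.1% at day 20, 2.86% and 3.71% in CD organoids, and 0.367% and 0.295% in adult CD. The share was lower at each later UB day without overlap. Taken over CPM in place of RPKM, which counts long transcripts more, it was 33.8% and 32.7% at day 5 and 20.4% and 20.2% at day 20. Its content differed more than its size. Col2a1 alone was 22.6% and 22.7% of all collagen at day 5, second after the basement membrane chain Col18a1, and 0.326% and 0.533% at day 20. By day 20, Col9a3 was the third most abundant collagen chain, after Col18a1 and Col4a5. In CD organoids and adult CD, the 5 leading chains held none of the 6 cartilage chains.

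**Figure D3:**
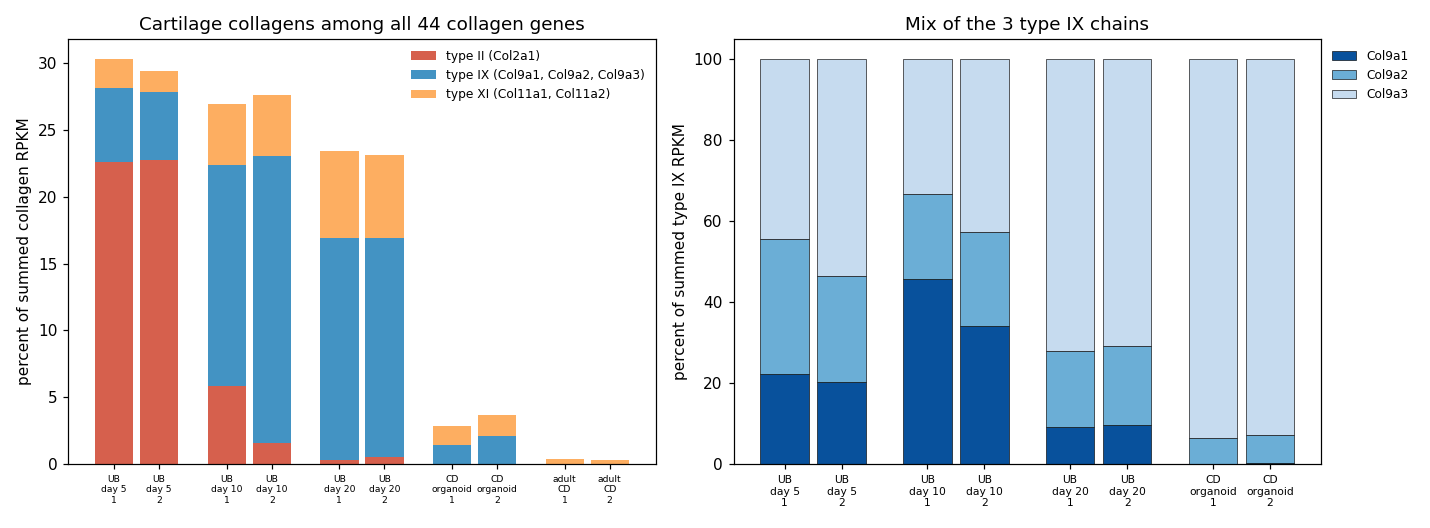
Left, share of the summed RPKM of all 44 collagen genes taken by the type II, type IX and type XI chains in each library, in percent. Right, the mix of the 3 type IX chains in each organoid library, in percent of their sum. Bars start at 0 and each is 1 library, numbered under its group. Type II gives most of the cartilage share at day 5 and type IX at day 10 and day 20, and Col9a3 takes more than 90% of type IX in CD organoids.

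The partners and targets of SOX9 outside these 10 genes were read from lists of names. These lists, and those of the paragraphs below, were chosen with earlier results of these data known. Their tests, those of CD organoids against day 10 included, are therefore not independent of the data. Of 19 further chondrocyte matrix genes, 15 could be tested. From day 5 to day 20, 3 rose (Prelp, Fmod and Col10a1), 3 fell (Hapln1, Matn3 and Chad) and 9 did not pass, where 20.6% of all genes rose and 24.6% fell. Here and below, where the genes behind a small count are listed, they were named after their values were seen. Hapln1, the link protein that ties aggrecan to hyaluronan, was at 81.8 and 47.9 CPM at day 5, 27.7 and 25.5 CPM at day 10, 0.425 and 2.58 CPM at day 20, and 0.214 and 0.0802 CPM in CD organoids. Hapln1 fell by 5.42 ± 0.39 (log2, SE) from day 5 to day 20 (edgeR adjusted p = 1.38e-07). Prelp, a leucine-rich repeat proteoglycan, went the other way, with 0.726 and 1.47 CPM at day 5 and 40.0 and 49.6 CPM at day 20 (log2 change 5.28 ± 0.31, edgeR adjusted p = 2.2e-08). In CD organoids against day 10, 8 of the 15 fell, 1 rose and 6 did not pass, where 25.2% of all genes fell and 22.1% rose. The gene that rose was Cnmd, chondromodulin, at 4.36 and 5.14 CPM at day 10 and 19.7 and 21.3 CPM in CD organoids (log2 change 2.09 ± 0.24, edgeR adjusted p = 5.67e-06). The 8 that fell were 4 without CD organoid replicate 2 and 5 with DESeq2, and the 3 that fell from day 5 to day 20 were 1 without day 20 replicate 1 or with DESeq2.

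Of 14 chondrocyte regulators, 12 could be tested. From day 5 to day 20, 3 rose (Runx2, Pthlh and Trps1) and 4 fell (Sox5, Pth1r, Fgfr3 and Barx1), near the shares of all genes, of which 20.6% rose and 24.6% fell. Their median log2 fold change was -0.54, against -0.05 over all genes. The 4 that fell were 1 without day 20 replicate 1 and 2 without day 5 replicate 2. Sox5 and Sox6, the partners of SOX9 in cartilage, were present in every library. Sox5 was at 23.7 and 25.2 CPM at day 5, 16.9 and 16.0 CPM at day 20, and 7.55 and 7.78 CPM in CD organoids, and was 1.84 ± 0.14 (log2, SE) lower in CD organoids than at day 10 (edgeR adjusted p = 1.25e-07). Sox6 was at 39.1 and 47.6 CPM at day 5, 33.8 and 40.0 CPM at day 20, and 106 in both CD organoid libraries, and was 1.22 ± 0.10 higher in CD organoids than at day 10 (edgeR adjusted p = 2.14e-07). The SOX9 partners thus went opposite ways between UB and CD organoids while Sox9 itself stayed near its level.

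Of 17 other Sox genes, 13 could be tested. From day 5 to day 20, 2 rose (Sox4 and Sox7) and 4 fell (Sox3, Sox5, Sox11 and Sox12), and the rest did not pass. These counts are near the shares of all genes (20.6% and 24.6%). Sox11, a SoxC gene of immature cells, went from 579 and 615 CPM at day 5 to 321 and 316 CPM at day 20, 84.3 and 82.7 CPM in CD organoids, and 8.37 and 6.29 CPM in adult CD. Sox4, of the same group, rose by 0.36 ± 0.08 (log2, SE) from day 5 to day 20 (edgeR adjusted p = 0.00272). Sox10, the third SoxE gene, had at most 0.530 CPM in any library and 0 counts in CD organoids. Of the 6 neural crest and Schwann markers, a list that holds Sox10, Foxd3 was at 0 in all 10 libraries, whereas Erbb3, a receptor gene not limited to neural crest, was at 341 and 340 CPM at day 5, 207 and 170 CPM at day 10, 118 and 117 CPM at day 20, and 183 and 184 CPM in CD organoids. The other 5 summed to between 4.76 and 8.14 CPM in every library. The part of such cells in these results was not tested.

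**Figure D4:**
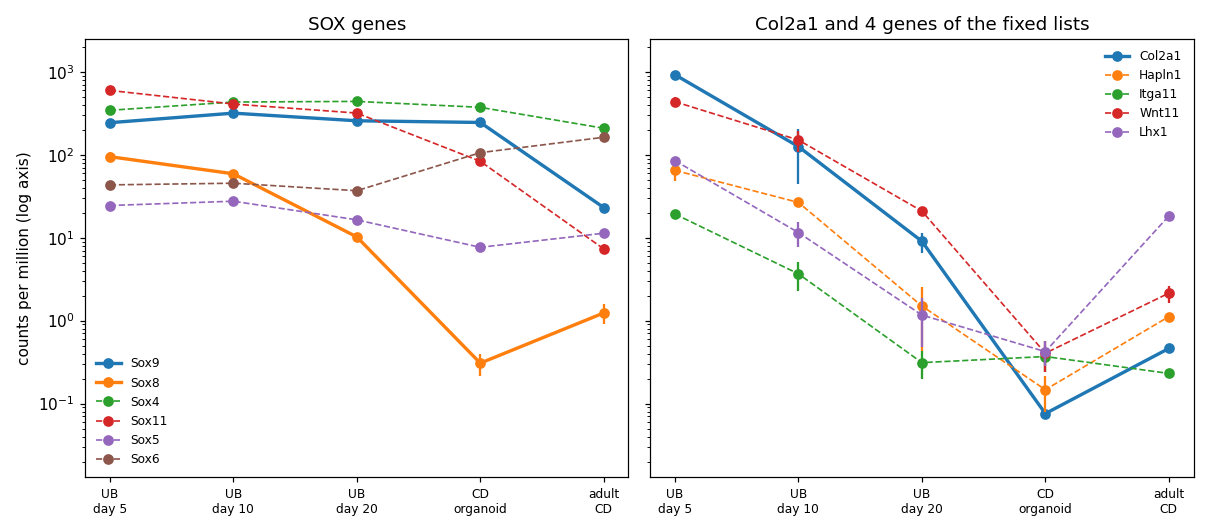
Levels of Sox9 and Sox8 beside 4 other SOX genes (left) and of Col2a1 beside Hapln1, Itga11, Wnt11 and Lhx1 (right), in CPM on a log axis. Points are means of 2 libraries, vertical lines reach from the lower to the higher library, thick lines are genes of the 10, and the lines between groups only guide the eye. Sox8 drops below 1 CPM in CD organoids while Sox9 does not, and all 5 genes on the right are lower at each later UB day. The 4 genes beside Col2a1 were among the largest changes of lists that moved both ways from day 5 to day 20. In these lists, 3 chondrocyte matrix genes, 3 collagen receptor genes and 5 genes of the ureteric tip list rose, and 3, 3 and 4 fell.

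Genes that make and modify collagen moved in both directions over the UB days. Of 23 collagen processing genes, 6 rose and 9 fell from day 5 to day 20, where of all genes 20.6% rose and 24.6% fell, and the median log2 fold change was -0.20. Serpinh1, the collagen chaperone HSP47, was at 586 and 588 CPM at day 5 and 204 and 222 CPM at day 20, a fall of 1.46 ± 0.08 (log2, SE, edgeR adjusted p = 1.08e-08). P4ha2, a subunit of the enzyme that hydroxylates collagen prolines, fell by 3.56 ± 0.39 (edgeR adjusted p = 5.56e-06), from 92.9 and 134 CPM to 7.04 and 12.2 CPM. Its day 10 libraries were at 65.8 and 24.5 CPM. Fkbp10, another collagen chaperone, fell by 2.54 ± 0.21 (edgeR adjusted p = 4.56e-07). P3h1, P3h2, P3h3, Ppib, Bmp1 and Adamts3 were the 6 that rose. In CD organoids against day 10, 3 rose and 12 fell, where of all genes 22.1% rose and 25.2% fell, and the median was -0.62 against -0.15 over all genes. The 3 that rose were P3h2, Colgalt2 and Adamts2, and without day 10 replicate 1 there were 6.

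Of 22 genes for chondroitin sulfate, the sugar chain carried by aggrecan, 9 rose and 3 fell from day 5 to day 20, beside 20.6% and 24.6% of all genes, and their median log2 fold change was -0.0095. Chst3, which sulfates the chain in the 6-position, fell by 3.86 ± 0.35 (log2, SE, edgeR adjusted p = 9.78e-07), from 14.8 and 20.6 CPM to 1.09 and 1.26 CPM. Chst11, which sulfates the 4-position, rose by 1.11 ± 0.09 (edgeR adjusted p = 5.51e-07), and Papss1 gave -0.03 ± 0.10 (edgeR adjusted p = 0.873). In CD organoids against day 10, 7 rose (4 with one or the other CD organoid library left out) and 9 fell, beside 22.1% and 25.2% of all genes. The chain polymerase gene Chsy1 fell by 3.06 ± 0.15 (edgeR adjusted p = 1.57e-09). Of 12 matrix proteases that cut aggrecan or collagen, 11 could be tested, and 4 rose and 2 fell (Adamts9 and Adamts20) from day 5 to day 20, with the same shares of all genes, 20.6% and 24.6%, as background. The 2 that fell were 1 without day 5 replicate 2 or without day 20 replicate 1, and 0 without day 20 replicate 2, with library totals alone or with DESeq2. Mmp2 was at 107 and 122 CPM at day 5, 295 and 287 CPM at day 20, and 6.48 and 4.25 CPM in CD organoids, and from day 10 to CD organoids it fell by 6.04 ± 0.19 (edgeR adjusted p = 3.25e-11).

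Of 7 collagen receptor genes, 3 rose (Itga1, Itga2 and Itgb1) and 3 fell (Itga10, Itga11 and Ddr1) from day 5 to day 20, beside 20.6% and 24.6% of all genes. Itga11 and Itga10 encode integrin subunits that bind fibrillar and cartilage collagens. Itga11 was at 18.4 and 20.1 CPM at day 5, 5.03 and 2.30 CPM at day 10, and 0.425 and 0.198 CPM at day 20, a fall of 5.71 ± 0.41 from day 5 to day 20 (log2, SE, edgeR adjusted p = 1.36e-07). In CD organoids against day 10, Ddr1 rose by 1.21 ± 0.09 (edgeR adjusted p = 9.49e-08). Of 13 other collagen chains, 3 rose (Col5a3, Col12a1 and Col16a1) and 3 fell (Col1a2, Col5a1 and Col20a1) from day 5 to day 20, and without day 5 replicate 1 those that fell were 5. The 3 and 3 are near the shares of all genes. In CD organoids against day 10, 4 rose and 5 fell, beside 22.1% and 25.2% of all genes. Col3a1, a chain of connective tissue, was at 9.28 and 4.48 CPM at day 10 and 119 and 61.3 CPM in CD organoids, and Col1a2 was at 0.396 and 0.729 CPM and then at 41.4 and 23.4 CPM.

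A list of 12 genes was read for the ureteric tip, where SOX9 and SOX8 are known to act. It is not limited to the tip, since it holds Gata3, Pax2 and Pax8, which the paper uses as markers of the UB lineage in general. Of the 12, 5 rose and 4 fell from day 5 to day 20, beside 20.6% and 24.6% of all genes. Wnt11, the tip gene after which the reporter of these mice is named, went from 376 and 496 CPM at day 5 through 192 and 109 CPM at day 10 to 19.2 and 22.7 CPM at day 20, a fall of 4.38 ± 0.24 (log2, SE, edgeR adjusted p = 1.37e-08). Lhx1 fell by 6.15 ± 0.37 (edgeR adjusted p = 2.92e-08). The receptor genes Ret and Gfra1 rose, Ret by 1.67 ± 0.31 (edgeR adjusted p = 0.000493) and Gfra1 by 0.46 ± 0.10 (edgeR adjusted p = 0.00223). In CD organoids against day 10, 9 of the 12 fell, 2 rose (Gata3 and Pax8) and 1 did not pass, beside 25.2% of all genes that fell and 22.1% that rose. The median log2 fold change of the 12 was -1.51. Ret fell by 6.48 ± 0.40 (edgeR adjusted p = 1.19e-08) and Etv4, a target of RET signalling, by 8.81 ± 0.25 (edgeR adjusted p = 1.11e-11).

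Markers of cartilage cells and of stroma were read in the same libraries. The 9 chondrocyte markers outside the 10 genes summed to 56.9 to 87.9 CPM at day 5, 31.5 to 32.6 CPM at day 10, 8.56 to 12.4 CPM at day 20 and 20.3 to 22.1 CPM in CD organoids. Hapln1 gave most of the sum at day 5 and Cnmd most of it in CD organoids. At day 5, 5 of the 9 had 3 or fewer counts in each library, and Col10a1, Snorc, Ucma and Epyc were at 0. Matn1, a defining cartilage gene, had at most 0.128 CPM in any library. The 12 stroma markers summed to 54.3 to 74.8 CPM at day 5, 142 to 146 CPM at day 10, 94.1 to 100.2 CPM at day 20 and 167 to 297 CPM in CD organoids, with Twist1 the highest in UB organoids and Col3a1 in CD organoids. Twist2 was at 0 at day 5 and day 20, Dcn at day 5 and Tcf21 at day 20. Twist1 alone set the order of the UB days. Without it, the other 11 summed to 13.7 to 40.4 CPM at day 5, 20.3 to 26.0 CPM at day 10, 12.3 to 12.5 CPM at day 20 and 151 to 283 CPM in CD organoids, and the day 5 libraries spanned those of day 10. From day 5 to day 20, 3 of the 12 rose, 2 fell and 7 did not pass, where 20.6% of all genes rose and 24.6% fell. The collagen chains Col1a1, Col1a2 and Col3a1, part of the list, had means of 7.45, 7.59 and 5.53 CPM at day 5 and 3.02, 0.284 and 1.94 CPM at day 20. At day 10, Col3a1 had a mean of 6.88 CPM, above that of day 5, and Col1a2 of 0.563 CPM. The part of stroma in these results was not tested. In bulk libraries, fewer cells of a type and less RNA per cell cannot be told apart.

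The genes with levels most like those of Sox9, Sox8 and Col2a1 were taken as the 5 highest Pearson correlations of log2(CPM + 1) over the 10 libraries, among 11929 genes with a mean of at least 10 CPM in some group. The 10 libraries form 5 pairs, so these correlations follow the group means and carry no test. For Sox9 they were Wnk2 (0.996), Khdc4 (0.995), Tcaf1 (0.994), Zcchc18 (0.994) and Naa40 (0.994), which like Sox9 were near level in all organoids and lower in adult CD. For Sox8 they were Crkl (0.994), H1f10 (0.994), Eif2b5 (0.994), Pml (0.993) and Acat2 (0.992), of which H1f10, a linker histone gene, had the widest range, from 108 CPM at day 5 to 8.38 CPM in CD organoids. For Col2a1 they were Rps14 (0.995), Ryr1 (0.993), Naca (0.993), Fau (0.992) and Rpl8 (0.991). 4 of these encode parts of the ribosome or a ribosome-bound complex and had a narrow range, for Rps14 from 888 CPM at day 5 to 222 CPM in CD organoids, whereas Ryr1 went from 14.4 to 0.0802 CPM. None of these 15 was one of the 10 genes. The search was not run for the other 7.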

How the data were processed

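RNA-seq of 10 libraries, 2 in each of 5 groups, was read from 1 deposited table of 39273 genes. The authors trimmed reads, aligned them with STAR to mm10 (GENCODE M24, per the methods) and counted reads per gene in Partek Flow; the submitters' processing notes name GRCm38.p6, FastQC 0.11.8, Trimmomatic 0.36, cutadapt 2.5 and edgeR 3.28.1. The methods and labels name different RNA and library kits. The deposited counts are unnormalized whole numbers. The deposited RPKM values were divided by a length which, for 98.2% of genes, equals the summed exons of all transcripts plus the exon number, so RPKM over merged exons (GENCODE M21) was computed for levels between genes. The deposited signal column, counts scaled by TMM in the authors' work, was used in no test.

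Counts were fitted with edgeR 4.0.16 (quasi-likelihood, TMM, all 10 libraries in 1 fit, prior count 1) for the 24410 genes with at least 10 counts in all, with Benjamini-Hochberg adjustment. Changed genes had an adjusted p no higher than 0.05, and the stricter limits were 0.01 with over 4-fold. SE is the log2 fold change divided by the root of F. On data simulated for day 10 against day 5, with 23535 genes, 199 of 200 altered genes were recovered with 3 false calls. Every altered gene there changed by at least 4-fold, and all other genes were equal between groups. This checks that the fit runs, and does not cover smaller changes or data in which many genes change. Counting intervals are exact at 95%, cover counting error only, and 3 counts were the limit for a count of 0. Promoters come from RefSeq. The 10 genes and all gene lists were chosen with earlier results of these data known. Named genes of a list were mostly the largest changes in each comparison, the most abundant genes of the list and those listed behind small counts. Alternatives covered scaling, filters, DESeq2, a fit of the compared groups alone, a replicate block, merged-exon length and leaving out each library.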

Additional observations from a re-analysis of the deposited data

How the results depend on the processing

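The fold changes of the 10 genes between UB organoid days were recomputed under other filters, scalings, DESeq2, a fit of the compared groups alone and without each library. Of these values, 333 kept their direction and side of the threshold, 13 no longer passed, 3 passed newly and 7 changed sign. The sign changed only for differences that did not pass the test. From day 10 to day 20, Col11a1 was 0.00593 in the fit of those groups alone and ran from -0.25 to 0.24 over the fits without 1 library, Col9a3 from -0.00392 to 0.36 and Acan from -0.98 to 0.33. From day 5 to day 20, Col11a2 ran from -0.10 to 0.35 and Col9a2 from -0.024 to 0.15, and Col9a2 was -0.00296 without day 20 replicate 2.

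The number of the 10 genes changed stayed at 9 for day 5 to day 10 and ran from 5 to 7 for day 10 to day 20 and from 5 to 6 for day 5 to day 20 when single libraries were left out, and the number past the stricter limits stayed at 3 in each. With a threshold of 0.05 and no limit on fold in place of the stricter limits, the 3 counts were 9, 7 and 6. Fitted with the groups compared alone, the counts past the stricter limits were 2, 2 and 3, and Col2a1 was the gene lost. Acan, at 21 counts at day 5, passed from day 5 to day 20 with no filter (edgeR adjusted p = 0.0322, from a fit that gave all genes 1 pooled spread, so that its p-values do not rest on the gene's own replicates), with those groups alone (0.0283) and without day 5 replicate 2 (0.0438). Over the 6 UB organoid libraries, the mean RPKM was 7.98 for Col11a1, 0.210 for Col11a2 and 8.63 for Col9a3 with the deposited lengths, and 11.7, 1.30 and 21.4 with merged exons. Same-numbered libraries did not deviate together (r from -0.0162 to 0.0809), so the numbers do not pair them, and with the replicate number as a block the counts of genes changed were 9, 7 and 6 and those past the stricter limits 3, 3 and 3. Genes near 1 CPM rest on few counts, and differences in Acan outside day 5 were not detectable at this depth.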
